A study of Mus musculus with 16 samples.

Results

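The comparison described here is that of RAW264.7 cells kept for 72 h with extracellular vesicles of PC3M cells against the same cells kept for 72 h with phosphate-buffered saline (PBS). RAW264.7 is a mouse macrophage line, called an osteoclast precursor in the labels, and PC3M is a metastatic human prostate cancer line. Its members are 4 libraries of messenger RNA, 2 with vesicles (EV) and 2 with PBS, chosen by their labels from the 16 libraries of the study. The other 12 libraries hold the same treatments at 48 h and the groups given RANKL, the cytokine that turns such cells into osteoclasts, or RANKL with vesicles, at 48 h and 72 h. All cells were first left to attach for 12 h. Vesicles were given at 30 µg/mL and RANKL at 10 ng/mL, and the PBS and EV groups of this comparison received no RANKL. Whether both libraries of a group stem from different cultures is not in the labels, and the p-values therefore reflect the spread of these samples alone, which may be technical. Values are RPKM, reads per kilobase of gene, scaled to library depth, taken back from the deposited log2 scale, and 10365 of 20490 genes were tested, those with a value of at least 1 on the deposited scale in at least 2 of the 16 libraries. Changes are differences of mean log2(RPKM + 1), EV minus PBS, which understate the change of genes near or below 1 RPKM, and n = 2 in every group.

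Osteoclasts are bone-resorbing cells that form when macrophage precursors meet RANKL and M-CSF. RANKL binds the receptor RANK, TRAF adaptors pass the signal to NF-kB and AP-1, and the transcription factor NFATc1 then switches on genes for cell fusion, for acid secretion through the vacuolar proton pump (V-ATPase) and for matrix digestion by enzymes such as cathepsin K. Vesicles released by tumour cells carry proteins, lipids and RNA, and macrophages take them up readily.

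The 4 libraries were close in depth, and the treated libraries belonged to a set of libraries that stood apart. Estimated depth was 18.4 to 20.0 M reads over all 16 libraries, where 3 reads per kilobase are worth 0.15 to 0.163 RPKM. Of the listed markers, those of the macrophage line summed to 6805 to 7649 RPKM in the 4 libraries. Of 17 epithelial or carcinoma markers 7 were in the table and 0 were tested, and their highest value in the 4 libraries was 0.0928 RPKM, for Muc1. Of 14 stromal and bone-forming markers 9 were in the table and 0 were tested, with Runx2 highest at 0.867 RPKM. For lymphoid, granulocyte and other blood lineages the table held 13 of 21 markers, 4 of them tested and 0 called, and Cd83 was highest at 14.9 RPKM. Across the study 5 libraries of 72 h had the highest ribosomal protein share: both EV libraries, both libraries of EV with RANKL, and library 2 of RANKL alone. The share of all RPKM that fell to ribosomal protein genes was 11.3% to 11.7% in those 5 libraries and 8.39% to 10.0% in the other 11. The mitochondrial share did not separate them, at 19.7% to 26.0% against 19.3% to 26.9%. Since both EV libraries are in this set and both PBS libraries of 72 h are outside it, the vesicle effect and whatever else sets these libraries apart cannot be told apart by group alone. Of the RANKL pair at 72 h, 1 library is in the set and 1 is not, so a second fit with a term for the 5 libraries takes the difference between RANKL libraries 2 and 1 off the EV minus PBS change. That difference rests on 1 library against 1, which widens the error of the change. A lower number of calls with the term can therefore stem from lost precision as well.

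Vesicles were followed by many small changes, more of them upward than downward. Of 10365 tested genes 1895 passed the limma test at an adjusted p under 0.05 (18.3%), 1083 higher (10.4%) and 812 lower (7.83%). Their median change was 0.52 for those higher and -0.47 for those lower, against 0.03 over all tested genes. Only 101 of them changed at least 2-fold (0.974% of the tested genes), 86 higher and 15 lower. The EV and PBS libraries did not overlap in 5920 genes (57.1%), with EV above PBS in 33.5% of the tested genes and below in 23.6%. Of the 1895 called genes 1894 had no overlap, so a lack of overlap adds little to a call. With medians set equal between libraries the split was 873 higher and 1342 lower, with quantile normalization 894 and 1053, and among genes at 5 RPKM or more 730 and 796, so that the excess of rises turned round in each of these settings.

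The number of calls depended on single libraries. Without PBS library 1 there were 1720 calls (16.6%) and without EV library 2 there were 2918 (28.2%). Without PBS library 2 there were 36 (0.347%), 34 of them also among the 1895, and without EV library 1 there were 55 (0.531%), of which 54 were. A fit to the 8 libraries of 72 h called 39 genes, all of them higher, and a fit to the 4 libraries alone called 10, with 2351 at an unadjusted p under 0.05. Without RANKL library 2, which shares in the estimate of the spread, there were 2565 calls. With the term for the 5 libraries 5 genes passed: Acp5, Angptl2, Ms4a6b and Tnfsf13b higher and Dcstamp lower. Of the 1895 called genes 86.2% had RANKL library 2 on the same side of RANKL library 1 as EV was of PBS, against 68.1% of all tested genes. Only 30 genes, 28 higher and 2 lower, were called in all 4 fits that left out 1 of the 4 libraries (0.289% of the tested genes), and 25 of these were also called in the fit to the 8 libraries of 72 h. These 30 were picked after their values were seen.

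**Figure D1:**
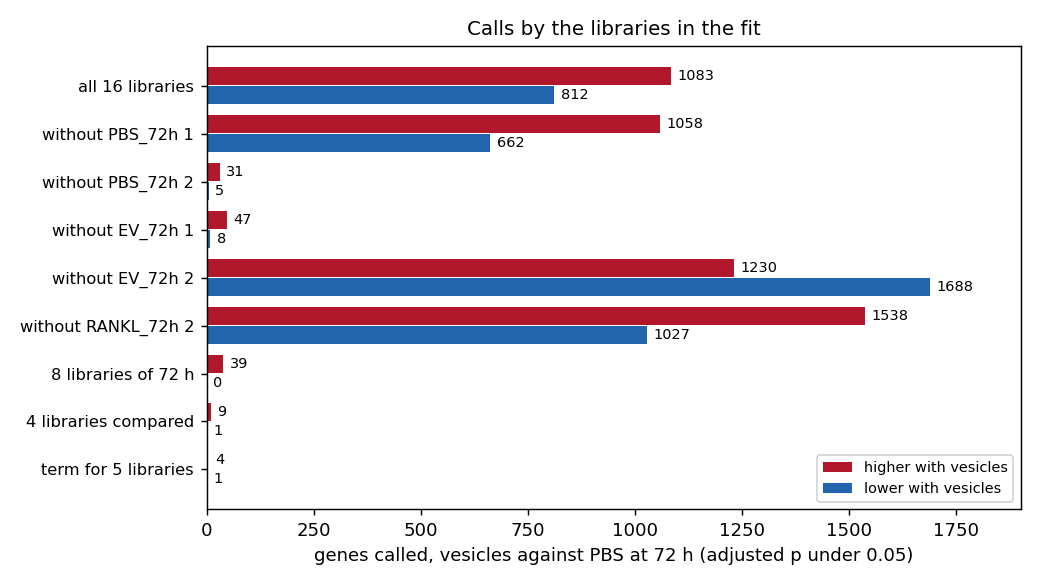
Horizontal bars give the number of genes called higher (red) or lower (blue) with vesicles than with PBS at 72 h, for the fit to all 16 libraries and for fits that leave out libraries or add a term. Calls fall from 1083 and 812 to 31 and 5 without PBS library 2 and to 47 and 8 without EV library 1.

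The gene that changed most was Acp5, tartrate-resistant acid phosphatase, the classical enzyme marker of osteoclasts. It stood at 0.642 and 0.437 RPKM in the PBS libraries and at 41.5 and 34.0 RPKM in the EV libraries, a change of 4.65 ± 0.26 (SE, limma adjusted p = 2.36e-06). Both EV libraries were far above both PBS libraries and far below the RANKL libraries of 72 h, at 166 and 309 RPKM. Atp6v0d2, an osteoclast subunit of the V-ATPase, was at 1.54 and 0.779 RPKM with PBS and at 38.1 and 19.5 RPKM with EV. Its change of 3.73 ± 0.32 (adjusted p = 0.000123) did not rest on 1 library, although EV library 1 was clearly the higher of its pair. The calls of both genes were kept in all 4 fits that left out a library, with changes of 4.51 to 4.79 for Acp5 and 3.27 to 4.20 for Atp6v0d2.

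Other rises that did not rest on a single library included a transcription factor, a secreted protein and a calcium pump. Fosl2, an AP-1 factor of osteoclasts, was at 5.10 and 4.17 RPKM with PBS and 16.4 and 17.3 RPKM with EV (1.67 ± 0.17, adjusted p = 0.000512). Angptl2, a secreted angiopoietin-like protein, was at 0.780 and 0.513 RPKM with PBS and 5.40 and 4.93 RPKM with EV (1.91 ± 0.13, adjusted p = 1.35e-05). In both genes the EV libraries lay close together and well above the PBS libraries, and Angptl2 was also above both RANKL libraries of 72 h, at 2.84 and 3.42 RPKM. Atp2a3, the SERCA3 calcium pump, had 3.30 RPKM in both PBS libraries and 12.5 and 12.0 RPKM with EV (1.62 ± 0.14, adjusted p = 0.000127). Ndrg4, of the NDRG family, had 4.58 and 3.14 RPKM with PBS and 17.1 and 11.1 RPKM with EV (1.62 ± 0.21, adjusted p = 0.00184). Rgl2, an exchange factor for Ral GTPases, went from 6.69 and 5.10 to 18.2 and 14.8 RPKM (1.34 ± 0.13, adjusted p = 0.00031).

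The other genes of the 30 have varied roles. Srgap3, a GTPase-activating protein, was at 1.46 and 1.55 RPKM with PBS and 3.80 and 3.89 RPKM with EV (0.95 ± 0.11). Abcb4, a phospholipid transporter, and Rai14, an actin-binding protein, rose by 0.93 ± 0.12 and 1.09 ± 0.14. Ccnl2, a cyclin linked to splicing, was at 7.02 and 6.39 RPKM with PBS and 15.6 and 14.4 RPKM with EV (1.05 ± 0.10, adjusted p = 0.0003), with no overlap. Rsrp1, an arginine and serine rich protein, was at 30.3 and 31.4 RPKM with PBS and 88.8 and 67.0 RPKM with EV (1.29 ± 0.15). The others that rose were Ppm1j, Sema4g, Grtp1, Ppcdc, B9d1, Ing4, Plekhg5, Lzts2, Klhl17, Sfi1, Pde1b, Metap1d, Abca7 and 3 predicted genes, by 0.60 to 1.95. The 2 falls were Smagp, a small membrane glycoprotein (-0.91 ± 0.17), and Rnasek, a V-ATPase-associated protein named after a ribonuclease (-0.72 ± 0.09). In 28 of the 30 genes RANKL library 2 lay on the same side of RANKL library 1.

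**Figure D2:**
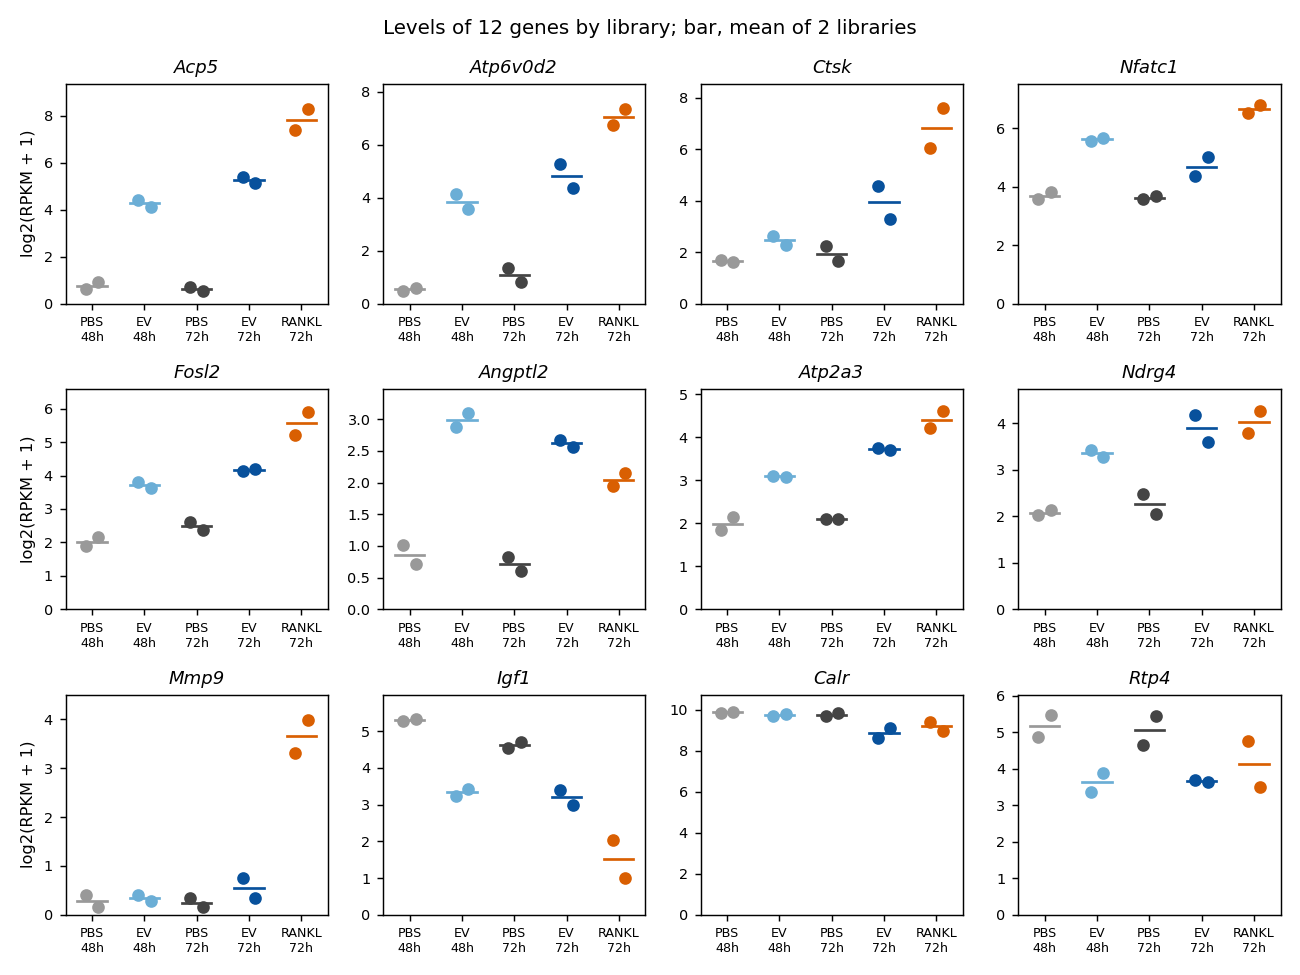
Each panel plots log2(RPKM + 1) of 1 gene in the 2 libraries (points) of PBS and vesicles (EV) at 48 h and 72 h and of RANKL at 72 h, with a bar at the group mean. Acp5 and Atp6v0d2 are raised by vesicles at both times and stay below the RANKL libraries, whereas Mmp9 stays low with vesicles.

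Among the mature osteoclast markers 3 passed the test. Of 9 tested mature osteoclast markers, Acp5, Atp6v0d2 and Ctsk were called higher and 0 lower (33.3%, against 10.4% of all tested genes higher), and 8 had a change above 0. The list moved with the set of 5 libraries: RANKL library 2 exceeded library 1 by a median of 0.89, and with the term the median went from 0.34 to -0.36, with 1 called higher and 1 lower. Ctsk, the collagen-digesting cathepsin K, was at 3.71 and 2.16 RPKM with PBS and at 23 and 8.91 RPKM with EV (2.0 ± 0.49, adjusted p = 0.0198). The EV libraries were both above the PBS libraries but far apart, and the call was lost without PBS library 2 or EV library 1 (largest adjusted p = 0.167). The other 6 did not pass. Mmp9, a matrix metalloproteinase, had 0.262 and 0.114 RPKM with PBS and 0.673 and 0.269 RPKM with EV, where RANKL gave 8.97 and 14.8 RPKM. Oscar, an osteoclast costimulatory receptor, had 0.0295 and 0.0273 RPKM with PBS and 0.533 and 0.143 RPKM with EV, all but the first EV value below 3 reads per kilobase, and Ocstamp, a fusion protein, 0.342 and 0.372 against 0.623 and 0.823 RPKM. Dcstamp, the main fusion protein, had 1.99 and 2.98 RPKM with PBS and 2.18 and 2.38 RPKM with EV (-0.07 ± 0.35, adjusted p = 0.895), and Car2, carbonic anhydrase, 23.3 and 13.8 against 22.6 and 16.2 RPKM. In such bulk libraries, more cells expressing a gene and more RNA per cell cannot be told apart. Summed over the list, the markers made 31.8 and 20.6 RPKM with PBS and 129 and 82.1 RPKM with EV, and without the 3 called genes 25.9 and 17.3 RPKM with PBS and 26.7 and 19.8 RPKM with EV.

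Of 18 tested osteoclast transcription factors 4 rose and 1 fell (27.8%, against 18.3% of all tested genes), with a median change of 0.23. Fosl2, described above, was among them. RANKL library 2 exceeded library 1 by a median of 0.25 in this list, and with the term 0 were called and the median was 0.0093. Nfatc1, the master regulator, was at 10.8 and 11.7 RPKM with PBS and at 19.7 and 31.1 RPKM with EV (1.07 ± 0.17, adjusted p = 0.00536). Jdp2, an AP-1 partner, was at 22.4 and 18.4 RPKM with PBS and at 31.4 and 38 RPKM with EV (0.73 ± 0.14), and Mitf, a factor that works with PU.1, at 10.6 and 9.31 against 15.9 and 14.2 RPKM (0.55 ± 0.12). No library of these 3 genes overlapped with the other group, yet the calls of Nfatc1 and Jdp2 were lost without PBS library 2 (adjusted p = 0.0528 for Nfatc1 and 0.115 for Jdp2), and that of Mitf without PBS library 2 or EV library 1 (largest adjusted p = 0.137). The fall was that of Fosl1, another AP-1 factor, at 9.47 and 14.3 RPKM with PBS and 6.13 and 6.31 RPKM with EV (-0.81 ± 0.24, adjusted p = 0.0345). The call of Fosl1 was lost without PBS library 2 and without either EV library. Of 20 RANK signalling components 1 rose, Ikbkg, the regulatory subunit of the IkB kinase (0.39 ± 0.10), and 2 fell, Tab2, an adaptor of the kinase TAK1 (-0.38 ± 0.09), and Rela, the NF-kB subunit p65 (-0.49 ± 0.13), with a list median of -0.01. This share of 15% was below the 18.3% of all tested genes. The change of Rela was 0.0011 with the term for the 5 libraries.

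Of 19 resorption genes 5 rose and 0 fell (26.3%, against 10.4% of all tested genes higher, median 0.30), among them Tcirg1, the osteoclast V-ATPase a3 subunit, at 37.5 and 29.2 RPKM with PBS and 73.5 and 53.3 RPKM with EV (0.90 ± 0.18), and Src, the tyrosine kinase of the actin ring, at 1.02 and 0.714 against 2.99 and 2.57 RPKM (1.02 ± 0.25). The other rises of the resorption list were Acp5, Ctsk and Atp6v0d2, already counted among the mature osteoclast markers. Of 18 genes of fusion and costimulation 5 rose and 0 fell (27.8%, median 0.34), Atp6v0d2 again among them. Tyrobp, the ITAM adaptor DAP12, was at 357 and 333 RPKM with PBS and 591 and 531 RPKM with EV (0.70 ± 0.17), and Fcer1g, its partner adaptor, rose by 0.57 ± 0.15. Of 18 brakes of osteoclast formation 3 rose and 0 fell (16.7%, against 10.4% of all tested genes higher, median 0.02), with Rcan1, an inhibitor of calcineurin and itself an NFAT target, at 8.26 and 10.2 RPKM with PBS and 16.6 and 19.9 RPKM with EV (0.91 ± 0.18). Without PBS library 2 the counts called higher were 2, 1 and 0 in these 3 lists, and without EV library 1 they were 2, 1 and 0. The term for the 5 libraries left 1 resorption gene called, Acp5, and a list median of -0.10, and in the fusion list 0 higher, 1 lower and a median of -0.05.

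Of 17 V-ATPase subunits 5 rose and 1 fell (35.3%, against 18.3% of all tested genes), and 16 had a change above 0 (median 0.38). Atp6v0d2 and Tcirg1, already counted in the lists above, were among the rises. Of 30 lysosomal hydrolases and membrane proteins 6 rose and 0 fell (20.0%, median 0.14). The lysosomal list had a median of 0.27 in EV library 1 and -0.0082 in EV library 2 relative to PBS, and 8 of its 30 members lay above PBS without overlap, against 33.5% of all tested genes. In the V-ATPase list RANKL library 2 exceeded library 1 by a median of 0.41, and with the term the list's median was -0.12. Only Atp6v0d2 of the V-ATPase list and none of the lysosomal list kept its call in all 4 fits without 1 library.

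Single receptors of macrophages were among the larger rises. Cd33, a sialic acid-binding receptor, was at 20.3 and 9.70 RPKM with PBS and 65.5 and 33.7 RPKM with EV (1.67 ± 0.40, adjusted p = 0.0175). Fcgr2b, the inhibitory Fc gamma receptor, was at 3.15 and 1.68 RPKM with PBS and 12.5 and 5.83 RPKM with EV (1.53 ± 0.27), and Fcgr4, an activating one, at 2.43 and 2.37 against 9.61 and 5.76 RPKM (1.32 ± 0.23). In each of them EV library 1 was the highest of the 4. Csf1r, the receptor of M-CSF, had means of 247 RPKM with PBS and 347 RPKM with EV, with no overlap (0.49 ± 0.11, adjusted p = 0.0147). Of 15 macrophage identity genes 4 rose and 1 fell (33.3%, against 18.3% of all tested genes), with a median change of 0.10 and 5 members below 0, and 0 were called without PBS library 2 or without EV library 1. The fall was that of Igf1, insulin-like growth factor 1, at 22.2 and 25.3 RPKM with PBS and 9.59 and 6.94 RPKM with EV (-1.43 ± 0.28, adjusted p = 0.0117, largest adjusted p = 0.115 without 1 library). It was the largest called fall outside predicted genes.

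Some of the largest rises rested on a pair of PBS libraries that differed widely. Eno2, a glycolytic enolase, had 8.35 RPKM in PBS library 1 and 0.642 RPKM in library 2, against 15.9 and 11.6 RPKM with EV (1.89 ± 0.56, adjusted p = 0.036). Selenbp1, a selenium-binding protein, had 16.5 and 1.78 RPKM with PBS and 30.4 and 18.8 RPKM with EV (1.84 ± 0.57, adjusted p = 0.0439). PBS library 1 was just below EV library 2 in both genes, and the groups did not overlap. The change of Eno2 was 0.64 without PBS library 2 and 3.15 without PBS library 1, and that of Selenbp1 was 0.52 and 3.17.

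Endoplasmic reticulum (ER) chaperones fell together. Of 23 tested genes of ER folding and the unfolded protein response 12 fell and 0 rose (52.2%, against 7.83% of all tested genes lower), with a median of -0.42, and 19 had a change below 0. Calr, the chaperone calreticulin, was at 819 and 902 RPKM with PBS and at 396 and 542 RPKM with EV (-0.89 ± 0.17, adjusted p = 0.0109). Dnajc3, an ER co-chaperone and inhibitor of the kinase PERK, was at 26.4 and 31.3 RPKM with PBS and 16.2 and 18.3 RPKM with EV (-0.71 ± 0.12), and Manf, a secreted ER stress protein, at 55.3 and 67.0 against 35.9 and 41.1 RPKM (-0.65 ± 0.12). The EV libraries were below both PBS libraries in each of these genes. Hspa5, the chaperone BiP, had 246 and 293 RPKM with PBS and 175 and 199 RPKM with EV (-0.52 ± 0.12), and Hsp90b1, GRP94, had 460 and 498 against 276 and 361 RPKM (-0.60 ± 0.13). The sensors Atf6 and Ern1 and the transcription factor Xbp1 did not pass, with changes of -0.02, 0.36 and 0.14. The median stayed between -0.51 and -0.35 when any 1 of the 4 libraries was left out, but 0 of the 12 calls remained without PBS library 2 and 0 without EV library 1. At 48 h the list's median change with vesicles was -0.03, with 0 called. Both RANKL libraries of 72 h were also below PBS, by medians of -0.40 and -0.59. RANKL library 2 differed from library 1 by a median of -0.17 in this list. With the term for the 5 libraries the list's median was -0.28, with 0 called.

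Many ER chaperone genes carry the ER stress response element, a composite site of NF-Y and ATF6, in their promoters. The motif, CCAAT and CCACG with 9 bases of any kind between them, was searched on both strands in the 250 bases before the start of each gene (RefSeq, GRCm38.p6), as 1 of 9 motifs chosen after the values were seen. It was present in 37 of 32851 promoters (0.113%). Among 19 promoters of list members 8 held it, 6 of them among the 9 that fell, Hspa5, Calr, Hsp90b1, Dnajc3, Creld2 and Syvn1, and the others were Canx and Pdia6. Of 4 tested genes outside the list with the motif, 1 fell (Alg12) and 1 rose (Pan2), with a median of 0.06. A match is a description of letters and not of binding. The sequences of 4 members that fell are shown because this element is what their promoters share. They are written 5′ to 3′ on the gene's strand, with the motif or its reverse complement in capitals.
Hspa5 (chr2:34771840-34772089, plus strand): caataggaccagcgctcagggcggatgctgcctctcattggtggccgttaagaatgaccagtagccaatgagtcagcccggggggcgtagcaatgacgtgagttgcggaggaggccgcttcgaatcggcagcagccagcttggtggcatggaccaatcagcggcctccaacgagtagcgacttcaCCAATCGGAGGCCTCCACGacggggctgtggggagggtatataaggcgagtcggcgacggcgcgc
Calr (chr8:84846932-84847181, minus strand): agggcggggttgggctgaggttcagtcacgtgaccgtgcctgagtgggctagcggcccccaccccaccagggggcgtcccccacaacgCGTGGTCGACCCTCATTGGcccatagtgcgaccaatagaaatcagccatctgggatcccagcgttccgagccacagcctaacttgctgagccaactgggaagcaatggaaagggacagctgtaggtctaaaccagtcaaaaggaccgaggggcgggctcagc
Hsp90b1 (chr10:86705445-86705694, minus strand): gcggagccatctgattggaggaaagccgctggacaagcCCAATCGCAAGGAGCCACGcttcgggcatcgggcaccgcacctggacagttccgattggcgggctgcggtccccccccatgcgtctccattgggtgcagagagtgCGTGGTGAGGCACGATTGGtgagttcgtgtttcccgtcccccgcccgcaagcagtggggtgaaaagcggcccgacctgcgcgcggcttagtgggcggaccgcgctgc
Dnajc3 (chr14:118937682-118937931, plus strand): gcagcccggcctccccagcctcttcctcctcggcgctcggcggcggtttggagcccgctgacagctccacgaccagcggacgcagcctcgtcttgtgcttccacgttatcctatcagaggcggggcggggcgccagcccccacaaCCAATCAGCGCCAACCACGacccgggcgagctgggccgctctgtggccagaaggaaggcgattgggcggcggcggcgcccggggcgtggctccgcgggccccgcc
Hsp90b1 holds the element in both orientations, Calr on the reverse strand, and Hspa5 and Dnajc3 on the forward strand. In Hspa5 it lies 65 to 47 bases before the start and in Dnajc3 105 to 87 bases before it.

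Ribosomal protein genes and ribosome assembly genes went in opposite directions. Of 80 cytosolic ribosomal protein genes 44 rose and 0 fell (55.0%, against 10.4% of all tested genes higher), with a median of 0.39, and 77 had a change above 0. Rpl37a, of the large subunit, was at 299 and 262 RPKM with PBS and 477 and 457 RPKM with EV (0.73 ± 0.15). Ribosomal protein genes have many processed copies, so reads may have been shared with these. The group moved with the set of 5 libraries: RANKL library 2 exceeded library 1 by a median of 0.37, the median fell to 0.04 with the term, and 0 were called without PBS library 2 or without EV library 1. Of 30 genes of ribosome biogenesis and the nucleolus 11 fell and 0 rose (36.7%, against 7.83% of all tested genes lower, median -0.31). A change below 0 was found in 27 of them, against 45.6% of all tested genes. Rrs1, a ribosome assembly factor, was at 43.3 and 50.8 RPKM with PBS and 23.2 and 28.9 RPKM with EV (-0.83 ± 0.13, adjusted p = 0.00596), and Dkc1, the pseudouridine synthase dyskerin, at 42.1 and 49.3 against 23.4 and 35.6 RPKM (-0.64 ± 0.15). In this list RANKL library 2 exceeded library 1 by a median of 0.09, and its median with the term was -0.36. Without PBS library 2 or EV library 1 again 0 passed, at medians of -0.23 and -0.10.

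The translation factors were split. Of 26 initiation and elongation factors 4 rose and 5 fell (34.6%, against 18.3% of all tested genes, median -0.01). Eif4e, the cap-binding protein, was at 44.7 and 49.1 RPKM with PBS and 25.1 and 28.4 RPKM with EV (-0.79 ± 0.15, adjusted p = 0.0116), and Eif3f, a subunit of the initiation complex, at 31.8 and 28 against 51.1 and 44.5 RPKM (0.66 ± 0.15). Neither gene overlapped between groups, as held for 1894 of the 1895 called genes. Of 77 mitochondrial ribosomal proteins 4 rose and 7 fell (14.3%, against 18.3% of all tested genes). Of 31 proteasome subunits 0 rose and 4 fell (12.9%, against 7.83% of all tested genes lower). The medians were -0.05 and -0.04, against 0.03 over all tested genes.

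Of 32 tested interferon-stimulated genes 6 fell and 0 rose (18.8%, against 7.83% of all tested genes lower). A change below 0 was found in 30 of them, against 45.6% of all tested genes, and the median was -0.39. Rtp4, a chaperone of receptor transport, was at 24.1 and 42.8 RPKM with PBS and at 12.0 and 11.4 RPKM with EV (-1.39 ± 0.37, adjusted p = 0.0253). Ifi44 was at 8.85 and 13.1 RPKM with PBS and 5.01 and 5.51 RPKM with EV (-0.92 ± 0.24). PBS library 2 was the highest of the 4 in both genes. The number called was 14 without PBS library 1, 0 without PBS library 2, 0 without EV library 1 and 4 without EV library 2, and the medians ran from -0.57 to -0.18. At 48 h, in other libraries, the list's median was -0.54 with 8 called lower. The interferon-stimulated response element, here GAAA, any 2 bases and GAAA again, was in 11 of 30 of their promoters, in 1 of 5 promoters of the members called (Trim30a), and in 2.98% of all.

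Antigen presentation and inflammatory lists held few calls, at 5.56% to 18.2% of their members, against 18.3% of all tested genes in either direction. Of 22 MHC class I presentation genes 4 fell and 0 rose (18.2%, against 7.83% of all tested genes lower, median -0.04). Among them was B2m, the light chain of class I molecules, at 2053 and 2110 RPKM with PBS and 1181 and 956 RPKM with EV (-0.97 ± 0.24). The change of B2m was 0.08 with the term for the 5 libraries. Calr and Pdia3 are shared with the ER list. Of 9 tested chemokines 1 fell, Ccl3, the macrophage inflammatory protein 1 alpha, at 363 and 289 RPKM with PBS and 191 and 166 RPKM with EV (-0.86 ± 0.18, adjusted p = 0.0126), and 7 had a change below 0. Both EV libraries of Ccl3 were below both PBS libraries, yet its call was lost without PBS library 2 or EV library 1 (largest adjusted p = 0.0733). Of 11 cytokines and mediators 1 rose (Il18) and 1 fell (Tgfb1), of 18 Toll-like receptor genes 1 rose (Tlr4), and of 8 complement genes 1 fell (C1qb, at 1.10 and 1.16 against 0.619 and 0.243 RPKM).

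The 2 EV libraries differed from each other in growth and sterol genes. Relative to the mean of the PBS libraries, 32 genes of DNA replication and the G1/S step had a median of -0.60 in EV library 1 and 0.07 in EV library 2, and 0 passed the test (median -0.25). Without EV library 2, 25 of the 32 were called lower, and without EV library 1, 0. Ccne1, cyclin E1, was at 16.0 and 21.8 RPKM with PBS and at 6.98 and 15.7 RPKM with EV (-0.77 ± 0.29, adjusted p = 0.08). In 23 sterol synthesis genes the medians were -0.53 in EV library 1 and 0.05 in EV library 2. Of these genes 3 fell and 0 rose (13.0%, against 7.83% of all tested genes lower). Dhcr7, the last enzyme of cholesterol synthesis, was at 14.9 and 17.9 RPKM with PBS and at 7.95 and 12.0 RPKM with EV (-0.68 ± 0.18, adjusted p = 0.0231). Of 32 genes of mitosis 1 rose and 2 fell (9.38%, against 18.3% of all tested genes). Of 17 heat shock genes 1 rose and 4 fell (29.4%), with a median of -0.33, and of -0.58 without EV library 2.

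Lipid handling genes changed in both directions. Of 17 genes of lipid efflux and LXR targets 5 rose and 2 fell (41.2%, against 18.3% of all tested genes, median 0.24). Pltp, phospholipid transfer protein, was at 16.7 and 13.3 RPKM with PBS and 43.2 and 44.4 RPKM with EV (1.49 ± 0.29, adjusted p = 0.0113), and Apoe, apolipoprotein E, at 1.07 and 0.916 against 1.78 and 1.65 RPKM (0.45 ± 0.10). Lpl, lipoprotein lipase, fell from 192 and 246 RPKM to 87.6 and 139 RPKM (-0.98 ± 0.18, adjusted p = 0.0104). None of these calls held without PBS library 2 or without EV library 1. Of 16 fatty acid synthesis genes 1 rose (6.25%, against 10.4% of all tested genes higher). It was Srebf1, the sterol-regulated transcription factor, at 15.9 and 15.4 RPKM with PBS and 20.5 and 25.2 RPKM with EV (0.51 ± 0.17). Its call was lost when any 1 of the 4 libraries was left out.

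Genes of survival, growth control and adhesion added single calls. Bmf, a BH3-only death protein, was at 0.798 and 0.566 RPKM with PBS and 4.0 and 2.26 RPKM with EV (1.27 ± 0.21, adjusted p = 0.00743), while Bak1, a pore-forming member of the same family, was at 147 and 183 against 76.4 and 95.4 RPKM (-0.94 ± 0.18). Of the 24 tested genes of the BCL2 family and of apoptosis, caspases among them, 2 rose and 1 fell. Mdm2, the ubiquitin ligase of p53, was among the steadiest falls, at 32.6 and 32.8 RPKM with PBS and 21.2 and 21.3 RPKM with EV (-0.60 ± 0.09, adjusted p = 0.00425, and 0.059 without PBS library 2), and among 20 p53 targets 1 rose and 3 fell. Tgfbr1, the type I TGF-beta receptor, was at 3.23 and 3.61 RPKM with PBS and 8.24 and 6.33 RPKM with EV (0.90 ± 0.19), and 2 of 20 genes of that pathway rose and 1 fell. Of 24 integrins and tetraspanins 4 rose and 0 fell (16.7%, against 10.4% of all tested genes higher). Among the largest falls Zfp36l1, an RNA-binding protein that shortens messages, was at 6.55 and 3.47 RPKM with PBS and 2.29 and 1.11 RPKM with EV (-1.14 ± 0.25), and Raet1d, a ligand of the receptor NKG2D with close paralogs, at 33.4 and 37.9 against 16.4 and 16.3 RPKM (-1.08 ± 0.15). The calls named above from the BCL2, p53 and TGF-beta lists came to 12.5%, 20.0% and 15% of their members, against 18.3% of all tested genes. Bmf, Bak1, Mdm2, Tgfbr1, Zfp36l1 and Raet1d were not among the genes called in all 4 fits that left out 1 library. The lists that follow had 5.56% to 20.0% called. In them 1 rose and 1 fell of 18 TCA cycle genes, 4 rose and 1 fell of 50 respiratory chain genes, 2 rose of 15 mitochondrially encoded genes, 2 rose and 3 fell of 25 immediate early genes, 1 rose and 1 fell of 23 NRF2 genes, 1 rose of 18 iron and heme genes, and 1 rose and 1 fell of 20 uptake receptors.

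Glycolytic and amino acid stress genes differed between the PBS libraries themselves. Of 27 genes of glycolysis and the hypoxia response 2 rose and 1 fell (11.1%, median 0.31). Of 30 targets of ATF4, the transcription factor of amino acid stress, 2 rose and 0 fell (6.67%, median 0.22). Both shares were below the 18.3% of all tested genes. The PBS libraries lay 0.19 above and 0.19 below their mean in the first list and 0.25 above and below it in the second, library 1 being the higher. Without PBS library 1 the calls higher were 14 and 11, and without PBS library 2 they were 0 and 0. Phgdh, the first enzyme of serine synthesis, was at 68.6 and 49.5 RPKM with PBS and 106 and 79.1 RPKM with EV (0.64 ± 0.20, adjusted p = 0.043).

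The vesicle changes of 48 h, which come from other libraries, were looked up at 72 h. Calls at both times used the spread estimated in the same fit, so they are not independent of each other. At 48 h 63 genes were called higher (0.608% of the tested genes) and 71 lower (0.685%). Of the 63, 62 were higher at 72 h too, against 54.4% of all tested genes, and 47 were called so, against 10.4%. Their median change was 0.91 at 48 h and 0.75 at 72 h. Of the 71, 57 were lower at 72 h, against 45.6% of all tested genes, and 18 were called so, against 7.83%. Their medians were -0.83 and -0.28, and 0 genes were called in opposite directions. Acp5 changed by 3.49 at 48 h and 4.65 at 72 h, Atp6v0d2 by 3.31 and 3.73, Angptl2 by 2.12 and 1.91, and Fosl2 by 1.69 and 1.67. Nfatc1 changed by 1.93 at 48 h and 1.07 at 72 h, with 46.7 and 49.7 RPKM in the EV libraries of 48 h, and Gja1, connexin 43, by 2.10 and 0.85. Seen the other way, 4.34% of the genes higher at 72 h and 2.22% of those lower had been called in the same direction at 48 h. Between 48 h and 72 h 1803 genes rose and 1544 fell with vesicles, against 15 and 52 with PBS. Of these libraries only the EV pair of 72 h is in the set of 5 that stand apart, so that difference is part of the contrast. Across all tested genes, which are not independent, the changes at both times had a Pearson r of 0.332 and a Spearman coefficient of 0.231.

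**Figure D3:**
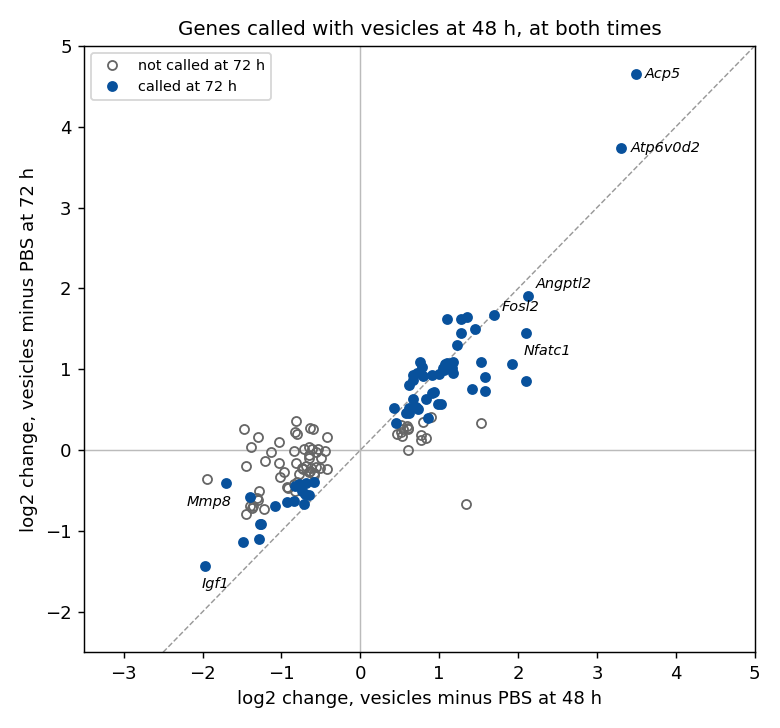
Each point is 1 of the 134 genes called with vesicles at 48 h, with its log2 change at 48 h on the x axis and at 72 h on the y axis, filled where it was also called at 72 h, and the dashed line marks equal change. Rises lie near the line, with 62 of 63 above 0 at 72 h, against 54.4% of all tested genes. Many falls lie close to 0 at 72 h.

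The test of the difference between times found little. Only 2 genes passed the adjusted threshold of 0.05 (0.0193%), with 2012 at an unadjusted p under 0.05. Mmp8, neutrophil collagenase, fell with vesicles from 3.66 and 3.88 to 0.470 and 0.457 RPKM at 48 h, and was at 0.510 and 0.780 RPKM with PBS and 0.211 and 0.258 RPKM with EV at 72 h, where PBS itself was low. The difference of the changes was 1.29 (adjusted p = 0.0212), and its call was lost without any 1 of the 4 libraries of 48 h and without EV library 1 of 72 h. The other was the predicted gene Gm37261, at 0.841 and 0.549 RPKM with PBS and 3.72 and 2.88 RPKM with EV at 72 h, with a difference of 1.5 (adjusted p = 0.0212). Without EV library 2 of 72 h the number was 1493.

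Vesicles and RANKL at 72 h were compared directly, since both share the same PBS libraries. Of the tested genes 1168 were higher (11.3%) and 756 lower (7.29%) with vesicles, and 614 of the 1924 kept their call without any 1 of the 4 libraries. All 9 tested mature osteoclast markers were lower than with RANKL, by a median of -2.26, and 7 to 9 stayed so when 1 library was left out. Ocstamp differed by -2.97 ± 0.21 (adjusted p = 2.82e-05), Mmp9 by -3.11 ± 0.36, Ctsk by -2.90 ± 0.49 and Nfatc1 by -1.97 ± 0.17. Of 15 macrophage identity genes 10 were higher with vesicles and 0 lower (median 1.57), and 8 to 10 stayed so. Of 30 ATF4 targets 27 were higher (median 0.89), and 10 to 26 without 1 library, and of 27 glycolytic genes 22 were higher (median 0.72), and 16 to 21 without 1 library. Relative to PBS, the RANKL libraries had medians of -0.56 and -0.70 in the ATF4 list and -0.61 and -0.73 in the glycolytic list. Among single genes Selenbp1 was higher with vesicles than with RANKL by 3.31 ± 0.57, Trib3, a pseudokinase of amino acid stress, by 2.95 ± 0.55, and Cd33 by 2.42 ± 0.40. ER chaperones differed little, with 3 of 23 higher and 0 lower (median -0.02), and of 80 ribosomal protein genes 0 passed with all libraries and 36 were higher without RANKL library 2.

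**Figure D4:**
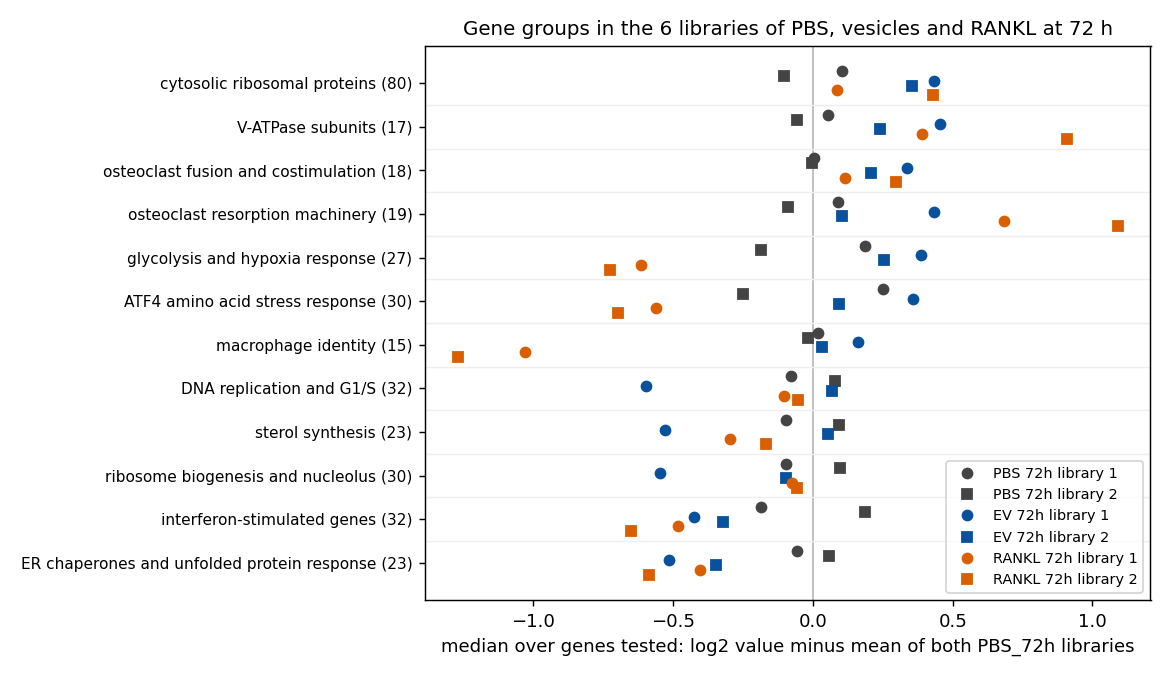
For 12 gene groups (tested genes in brackets) the points give the median log2 value minus the mean of both PBS libraries in each of the 6 libraries of PBS, vesicles (EV) and RANKL at 72 h. Macrophage identity, ATF4 and glycolytic genes lie lowest in the RANKL libraries, ER chaperones are low with both treatments, and replication and sterol genes are low in EV library 1.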

How the data were processed

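Messenger RNA of RAW264.7 cells was sequenced from TruSeq libraries, per the labels' protocols. The submitters' processing notes name FastQC, HISAT2 and Partek, and the builds GRCh38 and hg38, while the gene symbols are those of mouse and 92.9% are in GENCODE M21; the mouse build is not given in the sources used here. The deposited values behave as log2(RPKM + 1): the unit and log base are not stated and were worked out from the steps of low values. No read counts were used, so no count test was made. limma 3.58.1 (R 4.3.3) was fitted with a variance trend to all 16 libraries as 8 group means, with Benjamini-Hochberg adjustment over 10365 genes and a threshold of 0.05. Named genes were, in each direction, the 12 largest called changes at 5 RPKM or more without overlap between groups, predicted genes left out (6 for the other comparisons), and in each list the 4 members of smallest adjusted p, with the mature osteoclast markers and the genes named at 48 h, and genes named outside this rule were chosen after their values were seen. The comparison and the gene lists were chosen with earlier results of these data known. The name of 1 column of EV with RANKL at 48 h lacks the letter for RANKL, and its group was taken from the plus sign in it. With 2 libraries against 2 an exact permutation test cannot go below p = 0.333. The models were tested on simulated data. Alternatives covered the filter, the added constant, the scaling, the libraries fitted and a replicate block.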

Additional observations from a re-analysis of the deposited data

Results flagged for a closer look

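The effect of vesicles differed between 72 h and 48 h by the interaction test in 2 genes. For Mmp8 the difference was 1.29 on the log2 scale (limma adjusted p = 0.0212), from a change of -1.70 at 48 h and -0.41 at 72 h. For the predicted gene Gm37261 it was 1.5 (adjusted p = 0.0212), from a change of 1.34 at 72 h, and both genes lost this call without any 1 of the libraries of 48 h.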

How the results depend on the processing

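Calls for vesicles against PBS numbered 39 in the fit to the 8 libraries of 72 h, 10 in the fit to the 4 libraries, 5 with the term for the 5 libraries that stand apart, and 36 to 2918 when 1 library of the comparison was left out. Scaling, the added constant, the variance trend and robust moderation kept the total within 1.5 times of 1895. For the difference between times the count was 11 with no filter and 0 with only the groups compared, with the filter at 5 RPKM, with 0.1 or 0.5 in place of 1 added, and with the term, and 0 to 1493 when 1 library was left out (271 without RANKL library 2). For vesicles against RANKL it was 684 in the fit to the 8 libraries of 72 h, 433 in that to the 4 libraries, and 831 to 2689 when 1 library was left out. With the term, 10 named genes changed sign: Tomm6 0.11, Wdr83os 0.0462, Rela 0.0011, B2m 0.0825, Ndufa2 -0.17, Atp5e -0.14, Rps14 -0.0123, Atp6v0e -0.18, Atp6v1f -0.0893 and Cd53 -0.0632. That term takes off the difference between RANKL libraries 2 and 1, which rests on 1 library against 1 and widens the errors. The cause of the other shifts was not tested. With the replicate block, vesicles against PBS gave 2568 calls, the difference between times 2 and vesicles against RANKL 2306; same-numbered libraries correlated from -0.11 to 0.53 over 28 pairs of groups, 17 of them over 0.1, and by 0.46 for PBS and EV of 72 h and 0.40 and 0.53 for these with EV and RANKL of 72 h. The labels do not say what a number shares, so the numbers were not taken as pairs. The block took the genes called lower from 0 to 5 in DNA replication, 1 to 4 in chemokines, 6 to 11 in interferon-stimulated genes and 4 to 8 in heat shock genes, among other lists. At this depth 3 reads per kilobase are 0.15 to 0.163 RPKM, so values below that level rest on fewer reads than that. This level is not a detection limit for differences, which also depend on the spread between libraries. In the simulated data 50.7% of log2 changes of 0.5 were recovered, and there were 13 false calls. These figures apply to the simulated data only.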
